A study of Arabidopsis thaliana with 3 samples.

Results

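The loci described here are 133 nuclear genes of Arabidopsis thaliana whose read counts formed the same staircase over 3 pools of dissected inflorescence meristems. The inflorescence meristem is the growing tip of a flowering shoot, whose stem cells feed new flower primordia. All 3 pools belong to 1 group: the wild-type accession Col-0, without treatment, kept under 8 h of light a day for the first 4 weeks and under 16 h for the next 2. A pool combined 10 inflorescences stripped of older flower buds as far as stage P5 and frozen within 3 min. Nothing in the labels tells if the pools came from separate plantings or dissections, so differences between them may be technical. Pool numbers are those of the sample titles and carry no order of time or dose.

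The values are CPM, counts scaled to the nuclear total of each library. A locus entered the set when its mean over the pools was at least 5 CPM, its CPM was highest in pool 1 and lowest in pool 3, pool 1 was at least 3 times pool 3, pool 2 was at least 1.5 times pool 3, and pool 1 was less than 10 times pool 2. Of 15354 nuclear loci with that mean level, out of 32399 nuclear loci in all, 133 met the rule, which is 0.866% of them. Because these values chose the members, every pool ratio below is a description, no test was made of it, and it supports nothing about the members as a group. Intervals given for ratios are exact 95% intervals computed from the counts of the pair of pools. They cover counting error alone and leave out variation between plants or libraries. Duplicate reads of 1 molecule could not be recognised, and any of them would make the intervals too narrow.

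Many of the members are known in Arabidopsis as early-response genes. Such genes are transcribed within minutes of wounding, touch, cold or contact with a microbial pattern, often without new protein synthesis, and their RNA is then quickly removed. The route to them runs from calcium influx, reactive oxygen and mitogen-activated protein kinases to transcription factors of the WRKY, AP2/ERF and C2H2 zinc finger families, which pass the signal on to slower defence and hormone genes. No time course or stimulus was part of the series, so the speed of their response was not measured here, and the set is called graded after the rule that defines it.

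Read totals of the pools were alike: nuclear loci held 29078107 counts in pool 1, 28933042 in pool 2 and 27236559 in pool 3. The members together took 1.12% of the counts of pool 1, 0.604% of pool 2 and 0.209% of pool 3, a summed level 5.35 times as high in pool 1 as in pool 3. The 20 members with the highest mean level held 54.4% of that sum in pool 1, and the remaining 113 members held the rest. Organelle loci took between 0.0533% and 0.0644% of all counts and ribosomal protein genes between 7.46% and 7.88% of nuclear counts. Meristem and floral primordium markers (8 of 10 found reached 5 CPM) ranged from 0.722 to 0.994 times in pool 1 relative to pool 3, and WUS and CLV3, which mark small groups of meristem cells, were present below 5 CPM. The tapetum and anther list had a summed level of 149.6 CPM in pool 1, 23.61 CPM in pool 2 and 25.5 CPM in pool 3. Of its 11 genes found, 8 had a mean under 5 CPM and 2 of those, MS1 and CYP703A2, were at 0 in every pool, while the defining tapetum regulator AMS had 58.3 CPM in pool 1, 0.380 in pool 2 and 0.0367 in pool 3. The 6 pollen markers summed to 3.405 CPM in pool 1, 14.0 CPM in pool 2 and 1.06 CPM in pool 3, and VGD1 alone of them had a mean over 5 CPM, with 2.58 CPM in pool 1, 12.2 in pool 2 and 0.330 in pool 3. Of the 3 tapetum and anther genes with a mean of at least 5 CPM, 2 were highest in pool 1, beside 32.8% of all loci. The other had a pool 1 over pool 3 of 0.965. The summed tapetum and anther level was highest in pool 1 and the summed pollen level in pool 2, and their part in the results below was not tested. Sugar-starvation genes such as DIN10 took another course, with 1757 CPM in pool 1, 697 in pool 2 and 1458 in pool 3. In such bulk tissue, fewer cells that express a gene and less RNA in each cell cannot be told apart.

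**Figure D1:**
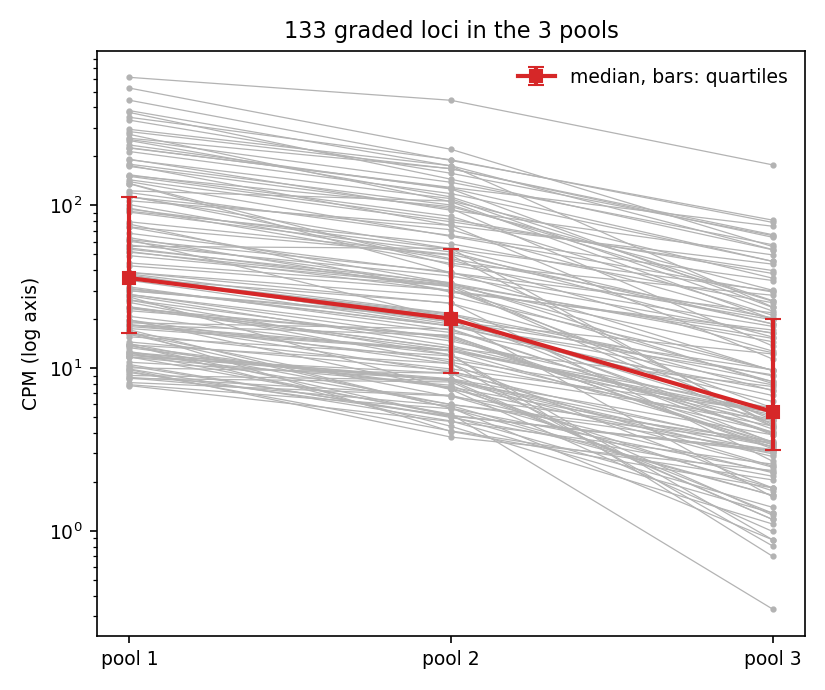
CPM (log axis) of the 133 graded loci in the 3 pools. Each grey line is 1 locus, and red squares with bars give the median and quartiles. The median was 35.8 CPM in pool 1, 20.1 CPM in pool 2 and 5.40 CPM in pool 3.

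The staircase was uneven. Over the members the median of pool 1 over pool 3 was 5.07, with a range of 3.01 to 38.1, and on the log2 scale it was 2.34 against 0.03 over all loci of that level. For pool 2 over pool 3 the median ratio was 2.84, or 1.51 on the log2 scale against 0.06 over all loci. Pool 1 exceeded pool 2 by a median of 1.76 times, so that pool 2 lay nearer to pool 1 than to pool 3 on the log scale in 109 members and nearer to pool 3 in 24. The rule itself favours this tilt. It asks that pool 2 be at least 1.5 times pool 3, but sets no least ratio and a cap of 10 for pool 1 over pool 2. In 19 members pool 1 stood at least 10 times above pool 3, and in 37 members less than 4 times. Mean levels ran from 5.03 to 411 CPM, with 20 members at 100 CPM or more and 35 under 10 CPM. In pool 3 the lowest count was 9, and 17 members had fewer than 50 counts there. The counting interval of pool 2 over pool 3 lay above 1 in all 133 members, and that of pool 1 over pool 3 lay above 3 in 114.

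The same thresholds applied to the other orders of the pools picked far fewer loci. Of the orders with pool 1 highest, 1-3-2 held 14 loci (0.0912%). With pool 2 highest, 2-1-3 held 19 (0.124%) and 2-3-1 held 13 (0.0847%). With pool 3 highest, 3-1-2 held 11 (0.0716%) and the mirror image 3-2-1 held 9 (0.0586%), which makes 66 loci over the other 5 orders. With no limit on the ratios, pool 1 above pool 2 above pool 3 held for 2658 loci (17.3%). A total of 178 loci (1.16%) had pool 1 at least 3 times pool 3, and 162 of these had pool 2 in between.

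**Figure D2:**
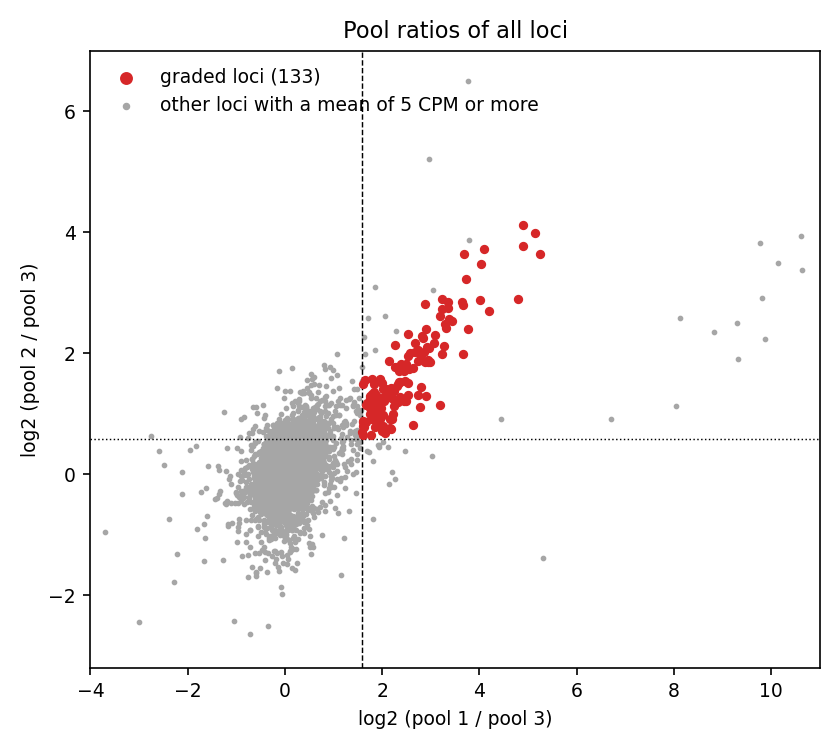
Log2 ratio of pool 2 to pool 3 against log2 ratio of pool 1 to pool 3 for the loci with a mean of at least 5 CPM and a count in every pool. Red points are the 133 graded loci, grey points the others, and the dashed and dotted lines mark ratios of 3 and 1.5. The members form an arm that leaves the main cloud along the diagonal, and the grey points at the far right are loci high in pool 1 alone.

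The members shared features of gene structure that the rule did not use. All 133 were protein coding, which is near the background, as 15011 of the 15221 other loci of the same level were too. Of the members, 70 (52.6%, exact 95% interval 43.8% to 61.3%) consisted of a single exon, against 1473 of those 15011 (9.81%, interval 9.34% to 10.3%). A member had a median of 1 exon and a coding length of 876 bases, where the other loci had a median of 5 exons and 1227 bases. At most 2 exons were annotated in 76.7% of members and in 22.7% of the others. Chromosome 4 carried 8.27% of the members and 15.2% of the loci tested, while chromosome 1 carried 28.6% and 26.4% and chromosome 5 carried 25.6% and 23.4%.

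Promoters were read from the RefSeq assembly TAIR10.1 from 250 bases before to 50 bases after each annotated gene start, and motifs were searched on both strands. The W-box core TTGAC, bound by WRKY factors, lay in 63.2% of member promoters (interval 54.4% to 71.4%), in 50.02% of those of the other loci and in 50.5% of all 26710 promoters. At least 2 copies were present in 30.1% of members and 17.3% of the others. In the 50 bases directly before the start, TTGAC was found in 21.8% of members and 11.4% of the others. That was the highest member share of any 50-base stretch of the window. From 250 to 200 bases before the start the shares were 17.3% and 10.5%, so the excess was not confined to the bases next to the start. In the 50 bases after the start they were close, at 11.3% and 10.2%. The core CGCGTT of the rapid stress response element, a calmodulin-binding transcription activator (CAMTA) site, lay in 18 member promoters (13.5%, interval 8.22% to 20.5%), in 3.61% of those of the other loci and in 3.42% of all promoters. With the 250 bases before the start alone, the share was 8.27% in members and 2.65% in the others, so part of the matches lay after the start. Both cores stood together in 11 members (8.27%) and in 1.78% of the others.

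Sites of other programmes were less frequent or close to the background. The TCP site TGGGCC, common in genes of growing cells, lay in 4.51% of member promoters and 22.1% of the others, and the telobox AAACCCTA in 2.26% and 5.996%. The G-box CACGTG was found in 13.5% of members and 9.17% of the others, the site GCCGCC bound by ERF factors in 4.51% and 2.62%, and the evening element AAATATCT in 9.02% and 5.88%. Shares were 19.5% and 16.8% for the DRE core CCGAC bound by the CBF factors, 24.8% and 24.1% for the as-1 core TGACG, and 54.9% and 49.7% for TATAAA. The word TTGACG counts for both TTGAC and TGACG and occurred in 14.3% of members and 8.88% of the others. These matches describe letters in a window and say nothing of binding. Of these motifs, the W-box core, the rapid stress response core and the TCP site were those for which the members' interval did not include the share in the other loci.

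**Figure D3:**
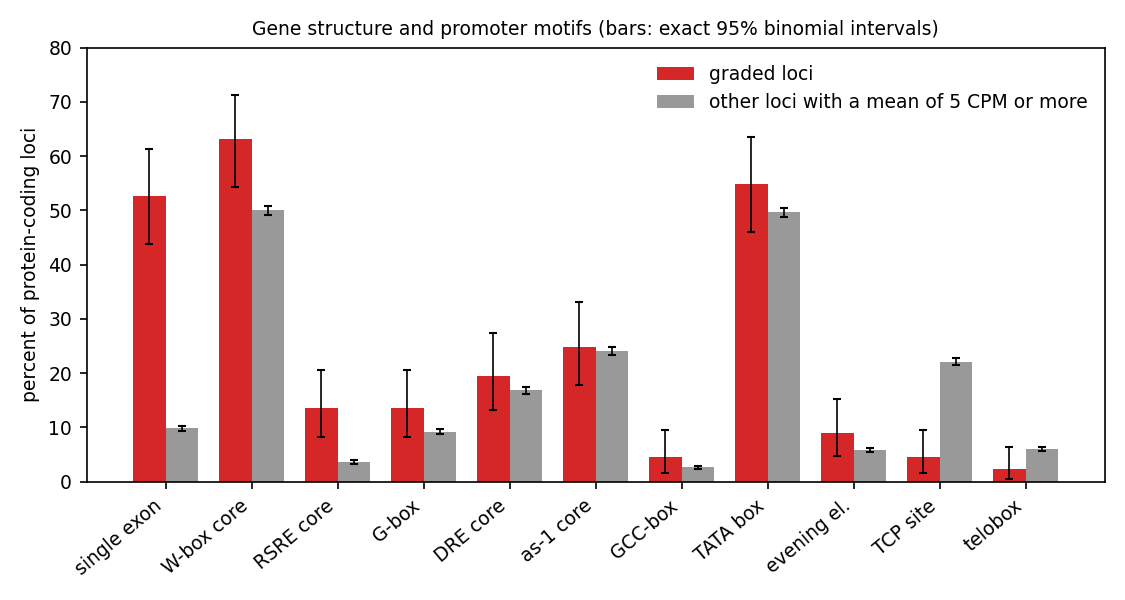
Percent of protein-coding loci that have a single exon, and percent whose promoter window holds each motif, for the graded loci (red, left of each pair) and the other loci with a mean of at least 5 CPM (grey). Bars on the columns are exact 95% binomial intervals. RSRE is the rapid stress response element with the core CGCGTT, W-box is TTGAC and TCP site is TGGGCC. Single exons reach 52.6% against 9.81%, and the TCP site is the lower of its pair at 4.51% against 22.1%.

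The 200 bases before the annotated start are shown for 7 members, chosen after their letters were seen, with TTGAC or its reverse complement GTCAA and CGCGTT or its reverse complement AACGCG in capitals. Each runs 5′ to 3′ on the strand of its gene. SZF1, RDUF1 and SYP122 carry 4 W-box cores each and come from a CCCH zinc finger gene, a RING ubiquitin ligase gene and a syntaxin gene.
SZF1: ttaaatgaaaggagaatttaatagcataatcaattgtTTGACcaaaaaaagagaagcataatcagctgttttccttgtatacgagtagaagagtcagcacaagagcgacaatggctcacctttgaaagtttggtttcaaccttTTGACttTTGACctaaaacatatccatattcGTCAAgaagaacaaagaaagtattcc
RDUF1: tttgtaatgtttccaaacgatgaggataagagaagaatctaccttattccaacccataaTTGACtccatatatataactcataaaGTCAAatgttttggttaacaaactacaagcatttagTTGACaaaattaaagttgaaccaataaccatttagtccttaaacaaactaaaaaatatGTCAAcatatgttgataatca
SYP122: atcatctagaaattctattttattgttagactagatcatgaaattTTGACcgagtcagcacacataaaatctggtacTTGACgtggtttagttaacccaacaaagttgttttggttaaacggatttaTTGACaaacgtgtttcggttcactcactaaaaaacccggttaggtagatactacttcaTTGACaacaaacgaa
These windows lie at chr3:20776020-20776219 (plus strand), chr3:17180560-17180759 (minus strand) and chr3:19427231-19427430 (minus strand). In all 3 a W-box core lies close to the start, 26 bases before it in SZF1, 21 in RDUF1 and 15 in SYP122. SYP122 also has 1 CGCGTT match in the wider promoter window, outside the bases shown, and so counts among the members with both cores.
The promoters of CBF2, DIC2 and AT1G19210 combine both cores, and that of TCH2 has the rapid stress response core alone.
CBF2: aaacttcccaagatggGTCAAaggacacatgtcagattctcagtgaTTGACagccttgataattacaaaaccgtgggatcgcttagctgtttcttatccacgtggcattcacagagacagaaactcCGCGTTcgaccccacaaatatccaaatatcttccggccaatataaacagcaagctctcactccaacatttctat
DIC2: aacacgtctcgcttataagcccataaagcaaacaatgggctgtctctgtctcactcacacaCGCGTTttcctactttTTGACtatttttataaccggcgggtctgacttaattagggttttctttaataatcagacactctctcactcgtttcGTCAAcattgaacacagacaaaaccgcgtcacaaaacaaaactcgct
AT1G19210: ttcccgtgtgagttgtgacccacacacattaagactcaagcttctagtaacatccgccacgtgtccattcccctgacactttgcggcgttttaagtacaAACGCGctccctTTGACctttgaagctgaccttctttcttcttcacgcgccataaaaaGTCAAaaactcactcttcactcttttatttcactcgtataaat
TCH2: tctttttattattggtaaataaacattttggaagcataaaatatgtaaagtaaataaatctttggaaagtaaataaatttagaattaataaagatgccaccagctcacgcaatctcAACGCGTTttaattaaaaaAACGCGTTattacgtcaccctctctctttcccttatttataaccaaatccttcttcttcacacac
They lie at chr4:13016236-13016435 (minus strand), chr4:12686259-12686458 (plus strand), chr1:6627689-6627888 (minus strand) and chr5:14999620-14999819 (minus strand). In TCH2 the word AACGCGTT occurs at 2 places and reads as CGCGTT on either strand, which is why 4 matches are counted. The CGCGTT core stands 74 bases before the start in CBF2, 139 in DIC2 and 101 in AT1G19210.

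Transcription factors numbered 28, and 15 of these were AP2/ERF proteins, 14 of them encoded in a single exon. AP2/ERF factors bind GCC-box or DRE sequences downstream of ethylene, cold and redox signals. RRTF1, which is switched on by reactive oxygen, had 61.6 CPM in pool 1, 20.1 in pool 2 and 1.62 in pool 3, a ratio of 38.1 between pools 1 and 3 (interval 28.3 to 52.7) that no other member exceeded. AT1G19210, an AP2/ERF protein known only by its locus and shown above with both cores, had 11.7 CPM in pool 1, 5.22 in pool 2 and 0.330 in pool 3. Its 9 counts in pool 3 leave the ratio of 35.5 wide, between 18.5 and 78.3. CBF1 and CBF2, activators of cold-response genes that sit side by side with CBF3 on chromosome 4, stood far apart between pools. CBF1 had 27.4 CPM in pool 1, 7.40 in pool 2 and 0.991 in pool 3. CBF2 had 19.7 CPM in pool 1, 10.6 in pool 2 and 1.84 in pool 3. CBF3, listed in the reference as DREB1A and lying between them, was no member and had 9.87 CPM in pool 1, 8.99 in pool 2 and 4.55 in pool 3.

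Other AP2/ERF members had smaller ratios. ERF6 and ERF5, regulators of defence and of leaf growth under stress, were expressed at a moderate level. ERF6 had 140.1 CPM in pool 1, 64.5 in pool 2 and 29.4 in pool 3. ERF5 had 114 CPM in pool 1, 47.1 in pool 2 and 20.4 in pool 3. In both, the step between pools 1 and 2 was about as large as that between pools 2 and 3. ERF104, a substrate of the kinase MPK6, had 113 CPM in pool 1, 54.2 in pool 2 and 29.8 in pool 3. ERF4, a repressor, had 119.9 CPM in pool 1, 65.4 in pool 2 and 34.5 in pool 3, and its ratio of 3.47 lay near the lower end of the set. ORA47, an activator of jasmonate synthesis genes, had 73.4 CPM in pool 1, 33.2 in pool 2 and 14.5 in pool 3. ERF13 had 53.8 CPM in pool 1, 33.5 in pool 2 and 8.04 in pool 3. AT5G51190, or ERF105, had 90.9 CPM in pool 1, 51.8 in pool 2 and 15.5 in pool 3. These genes differed in level, and their shared order of pools is set by the rule. Pool 2 lay nearer to pool 1 in 12 of the 15 AP2/ERF members, beside 109 of all 133 members, a tilt that the rule favours. DREB2A, an activator of drought and heat genes, and ERF11, a repressor, were lower, with mean levels of 8.86 and 8.19 CPM. In the reference 40 loci of this level are described as AP2/ERF or integrase-type proteins, and 14 of them (35%) were members, against 0.866% of all loci.

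WRKY factors bind the W-box and govern defence. WRKY33, needed for camalexin synthesis and resistance to necrotrophic fungi, had 176 CPM in pool 1, 75.3 in pool 2 and 43.6 in pool 3. WRKY40, a repressor of defence genes, had 136 CPM in pool 1, 43.1 in pool 2 and 19.8 in pool 3. In both, the larger step lay between pools 1 and 2. WRKY46 had 73.8 CPM in pool 1, 49.5 in pool 2 and 4.48 in pool 3, where pool 2 stood 11.1 times and pool 1 16.5 times above pool 3. WRKY48 was low, at 8.77 CPM in pool 1, 6.81 in pool 2 and 2.28 in pool 3. SIB1, a VQ protein that binds WRKY33, had 44.3 CPM in pool 1, 32.0 in pool 2 and 12.4 in pool 3. Members made up 4 of the 30 WRKY genes of the list at 5 CPM or more (13.3%, beside 0.866% of all loci), and the median log2 ratio of pool 1 to pool 3 over the 30 was 0.14. WRKY70, a regulator of salicylic acid responses, had 450.0 CPM in pool 1, 279 in pool 2 and 252 in pool 3 and was no member.

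Of the C2H2 zinc finger repressors, 3 of 4 listed genes at this level were members. STZ, also called ZAT10, had 94.8 CPM in pool 1, 54.0 in pool 2 and 18.7 in pool 3. RHL41, or ZAT12, which acts in oxidative and light stress, had 63.4 CPM in pool 1, 29.9 in pool 2 and 8.26 in pool 3. ZAT6 had 12.7 CPM in pool 1, 5.98 in pool 2 and 3.49 in pool 3. The list's remaining gene, AZF2 (ZF2 in the reference), had 11.7 CPM in pool 1, 4.32 in pool 2 and 3.08 in pool 3. All 4 genes were highest in pool 1, beside 32.8% of all loci, and the rule requires this of the 3 members.

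MYB, NAC and heat shock factors supplied 6 members with a median pool 1 over pool 3 of 3.53. MYB77, a partner of auxin response factors, had 122.9 CPM in pool 1, 106 in pool 2 and 35.7 in pool 3, so pools 1 and 2 were close. NAC062, a membrane-tethered factor, had 144 CPM in pool 1, 79.4 in pool 2 and 39.8 in pool 3. MYB51, an activator of indole glucosinolate synthesis, had 7.91 CPM in pool 1, 5.63 in pool 2 and 1.65 in pool 3. HSFB2A and HSFC1 are heat shock factors of classes B and C. HSFB2A had 37.4 CPM in pool 1, 19.2 in pool 2 and 12.2 in pool 3. HSFC1 had 17.2 CPM in pool 1, 5.67 in pool 2 and 2.31 in pool 3, a steeper course. NAC036 had 18.4 CPM in pool 1, 11.3 in pool 2 and 5.36 in pool 3. HSP101 and HSP70-1, which heat induces, were near even or highest in pool 2 and were not members. Over the 8 heat shock genes of the list at this level, the median log2 ratio of pool 1 to pool 3 was 0.48, beside 0.03 over all loci. Pool 3 was lowest in 6 of the 8, beside 41.3% of all loci.

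**Figure D4:**
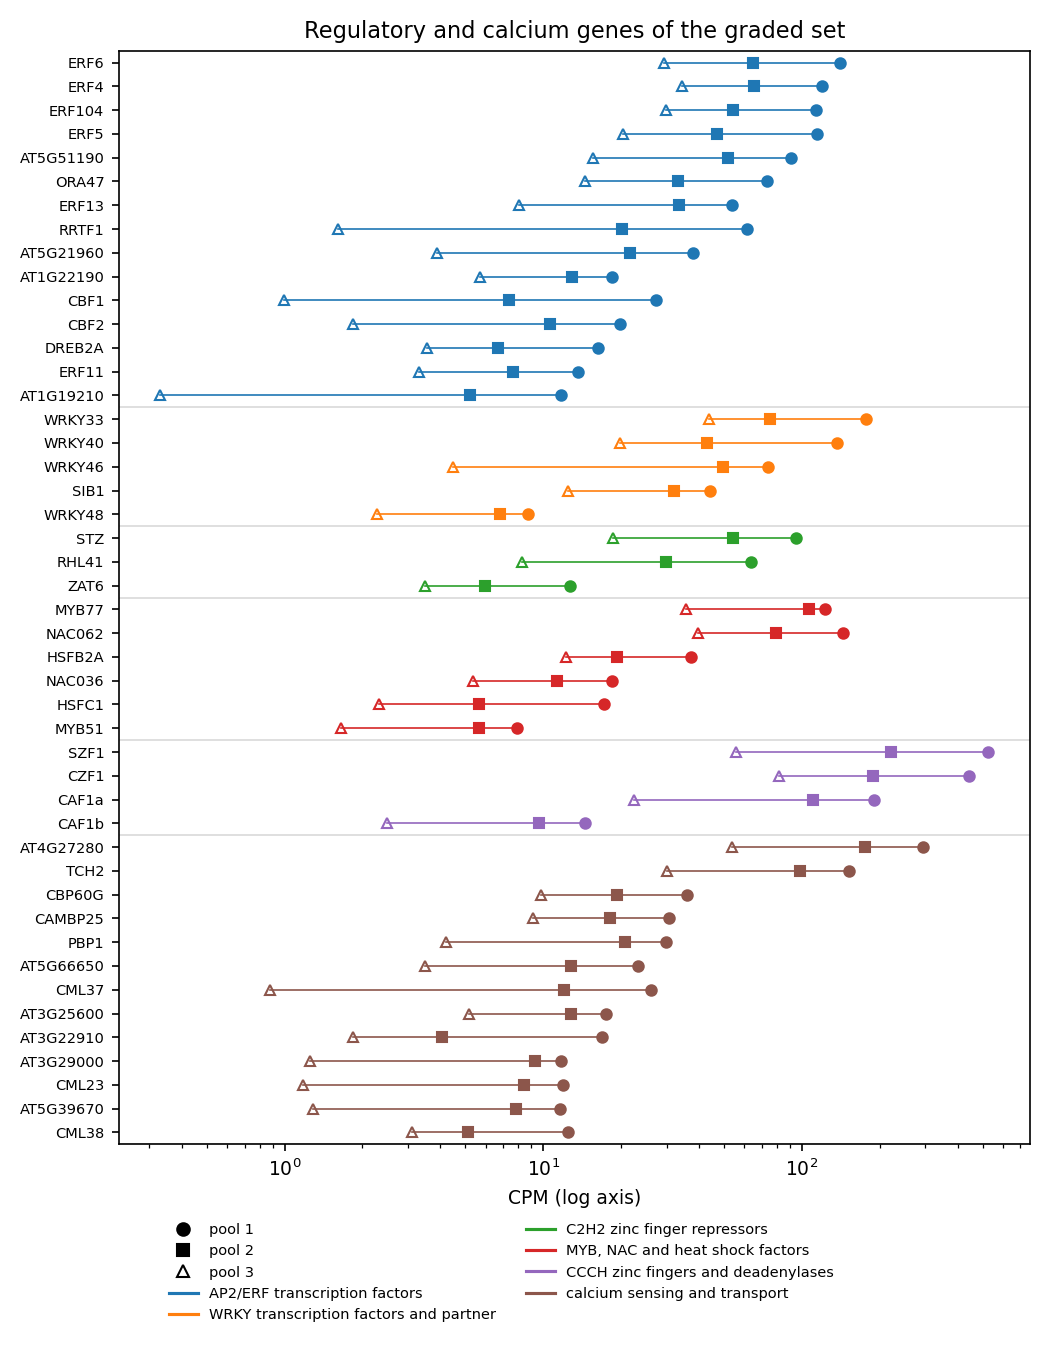
CPM (log axis) in pool 1 (circle), pool 2 (square) and pool 3 (open triangle) for the transcription factors, RNA-decay genes and calcium genes of the graded set, grouped by colour. Each row is 1 gene, ordered by mean level within its group. In RRTF1 the pools span 61.6 to 1.62 CPM, and SZF1 reaches 526 CPM in pool 1.

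RNA turnover was represented by 4 members. SZF1 and CZF1, tandem CCCH zinc finger proteins that modulate salt responses, were both members. SZF1 had 526 CPM in pool 1, 221 in pool 2 and 55.9 in pool 3. CZF1 had 443 CPM in pool 1, 189 in pool 2 and 81.3 in pool 3. The other tandem CCCH genes at this level were not members: TZF1, for one, had 414 CPM in pool 1, 263 in pool 2 and 452 in pool 3. CAF1a and CAF1b are deadenylases, which shorten poly(A) tails and so start the decay of an mRNA. CAF1a had 191 CPM in pool 1, 110.1 in pool 2 and 22.4 in pool 3. CAF1b had 14.5 CPM in pool 1, 9.64 in pool 2 and 2.50 in pool 3.

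Calcium genes made up 13 members with a median pool 1 over pool 3 of 6.68. AT4G27280, an EF-hand protein, had 294 CPM in pool 1, 175 in pool 2 and 53.6 in pool 3. TCH2, a calmodulin-like protein found by its induction on touch, had 152 CPM in pool 1, 98.2 in pool 2 and 30.1 in pool 3. CML37, a calmodulin-like protein of drought and herbivore responses, had 26.1 CPM in pool 1, 12.1 in pool 2 and 0.881 in pool 3, which was the fourth highest ratio at 29.7 (interval 19.8 to 46.6). CML23 had 11.97 CPM in pool 1, 8.43 in pool 2 and 1.17 in pool 3. CML38 had 12.4 CPM in pool 1, 5.12 in pool 2 and 3.12 in pool 3. CML37 and CML23 had their larger step between pools 2 and 3, and CML38 between pools 1 and 2. CBP60G, a calmodulin-binding activator of salicylic acid synthesis, had 35.8 CPM in pool 1, 19.3 in pool 2 and 9.77 in pool 3. CAMBP25, a calmodulin-binding protein, had 30.6 CPM in pool 1, 18.1 in pool 2 and 9.11 in pool 3. PBP1, which binds the auxin-transport kinase PINOID, had 30.0 CPM in pool 1, 20.6 in pool 2 and 4.22 in pool 3. CBP60G and CAMBP25 kept low ratios, and PBP1 was steeper at 7.09. AT5G66650 is annotated as a calcium uniporter protein, the type that takes calcium into mitochondria, and had 23.3 CPM in pool 1, 12.8 in pool 2 and 3.49 in pool 3. AT3G22910, a cation-transporting ATPase, was nearest to the cap on pool 1 over pool 2, at 4.13. AT3G25600, AT3G29000 and AT5G39670 are further EF-hand proteins, with mean levels between 6.93 and 11.8 CPM. In all, 8 of 37 loci of this level described as EF-hand or calmodulin-like (21.6%) were members, beside 0.866% of all loci. TCH3, a calmodulin-like touch gene that did not qualify, had 245 CPM in pool 1, 118 in pool 2 and 105 in pool 3.

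Kinases and phosphatases contributed 5 members. MPK11 had 31.0 CPM in pool 1, 18.18 in pool 2 and 6.79 in pool 3. MAPKKK14 had 13.9 CPM in pool 1, 4.39 in pool 2 and 1.101 in pool 3. AT2G30020, the phosphatase AP2C1 that switches off MPK4 and MPK6, lies next to MAPKKK14 on chromosome 2 and had 92.0 CPM in pool 1, 58.1 in pool 2 and 25.2 in pool 3. The phosphatase AT3G62260 and the kinase AT1G67470 had mean levels of 11.2 and 8.28 CPM. Over 17 genes of the mitogen-activated protein kinase cascade the median log2 ratio of pool 1 to pool 3 was 0.12, beside 0.03 over all loci. Of the 17, 8 stood in the order pool 1 above pool 2 above pool 3, beside 17.3% of all loci. Pool 3 was lowest in 12, beside 41.3% of all loci, and the rule requires both of the 3 members among them. MPK6, a central kinase of the cascade, had 88.3 CPM in pool 1, 81.2 in pool 2 and 95.8 in pool 3. Of 473 loci described as protein kinases, 2 (0.423%) were members, beside 0.866% of all loci.

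Ubiquitin ligases and an F-box protein gave 9 members, 7 of them with a single exon. RDUF1 and RDUF2 are RING ligases of drought and abscisic acid responses. RDUF1 had 235 CPM in pool 1, 126 in pool 2 and 23.61 in pool 3. RDUF2 had 154 CPM in pool 1, 85.7 in pool 2 and 21.1 in pool 3. In both, pool 3 stood well apart from pools 1 and 2. ATL2, a RING ligase that chitin induces, had 36.0 CPM in pool 1, 21.5 in pool 2 and 8.96 in pool 3. CMPG2 had 35.8 CPM in pool 1, 21.2 in pool 2 and 8.30 in pool 3. FBS1, an F-box protein induced by many stresses, had 37.0 CPM in pool 1, 18.6 in pool 2 and 7.89 in pool 3. The ratios of pool 1 to pool 3 lay between 4.02 and 4.69 in ATL2, CMPG2 and FBS1. PUB23, a U-box ligase that dampens pattern-triggered immunity, had 9.87 CPM in pool 1, 4.74 in pool 2 and 1.29 in pool 3. PUB18, which acts in stomatal responses, had 14.1 CPM in pool 1, 5.98 in pool 2 and 3.16 in pool 3. AT1G20823 and AT5G66070 are RING proteins with mean levels of 12.1 and 5.03 CPM. Among 294 loci of this level whose reference description names RING or U-box, 6 (2.04%) were members, beside 0.866% of all loci. ATL2 and CMPG2 are described there in other words and are not in this count.

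Immune receptors and other defence genes supplied 12 members. HSPRO2, related to a nematode-resistance gene of sugar beet, had 373 CPM in pool 1, 145 in pool 2 and 53.4 in pool 3. NHL3, a membrane protein induced by bacteria, had 334 CPM in pool 1, 158 in pool 2 and 65.2 in pool 3. TET8, a tetraspanin of secreted vesicles, had 226 CPM in pool 1, 127 in pool 2 and 45.3 in pool 3. SRC2, named after a cold-regulated soybean gene, had 225 CPM in pool 1, 129 in pool 2 and 74.5 in pool 3, and was the flattest of these 4 genes with a ratio of 3.02. BAP1, a suppressor of cell death, had 36.3 CPM in pool 1, 20.7 in pool 2 and 3.49 in pool 3. SYP122, a syntaxin of defence-related secretion whose promoter is shown above, had 31.6 CPM in pool 1, 17.1 in pool 2 and 4.04 in pool 3. Both were under 5 CPM in pool 3 alone. AT2G27080, annotated as an LEA hydroxyproline-rich glycoprotein, had 20.8 CPM in pool 1, 12.1 in pool 2 and 0.698 in pool 3, a ratio of 29.8 from 19 counts in pool 3. RLP19, a receptor-like protein, had 23.8 CPM in pool 1, 13.2 in pool 2 and 4.63 in pool 3. The TIR-type immune receptors AT5G41740, AT5G41750, AT1G72910 and AT1G72950 had ratios of pool 1 to pool 3 of 3.86, 5.55, 5.79 and 7.37. Pattern receptors were mostly even: BAK1, a co-receptor, had 84.2 CPM in pool 1, 82.2 in pool 2 and 92.8 in pool 3. SOBIR1, a receptor partner kinase, had 198 CPM in pool 1, 114 in pool 2 and 66.5 in pool 3 and missed the limit of 3 with a ratio of 2.99.

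Hormone and growth genes numbered 8. PUP14, a transporter that takes up cytokinin, had 348 CPM in pool 1, 191 in pool 2 and 78.6 in pool 3. ACS6, which makes the ethylene precursor ACC and is stabilised by MPK6, had 273 CPM in pool 1, 105 in pool 2 and 20.01 in pool 3, a ratio of 13.7. No other of the 4 listed ethylene synthesis genes at this level was a member. CYP707A3, which inactivates abscisic acid, had 18.4 CPM in pool 1, 15.9 in pool 2 and 3.19 in pool 3. ATGA2OX1, which inactivates gibberellin, had 10.9 CPM in pool 1, 8.54 in pool 2 and 3.05 in pool 3. In both inactivating enzymes pools 1 and 2 were close together and pool 3 stood apart. RTFL12, a small peptide of the ROTUNDIFOLIA family that acts on organ shape, had 76.8 CPM in pool 1, 29.3 in pool 2 and 17.1 in pool 3. AT3G09870 and AT1G56150 are SAUR-like genes, a family that auxin induces. AT3G09870 had 13.3 CPM in pool 1, 7.57 in pool 2 and 1.76 in pool 3. AT1G56150 had 9.01 CPM in pool 1, 8.43 in pool 2 and 2.86 in pool 3. AT2G35290, of unknown function, had 19.0 CPM in pool 1, 17.42 in pool 2 and 3.97 in pool 3. In the reference 11 loci of this level are described as SAUR-like, and 2 of them were members, beside 0.866% of all loci. Of 8 early auxin genes in the list, 0 were members, which at a share of 0.866% is near the background. IAA12 had 38.1 CPM in pool 1, 43.3 in pool 2 and 35.3 in pool 3.

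Cell wall genes gave 5 members. TCH4, a xyloglucan endotransglucosylase induced by touch, had 259 CPM in pool 1, 168 in pool 2 and 63.7 in pool 3. GATL10, a galacturonosyltransferase-like protein with both promoter cores, had 13.9 CPM in pool 1, 10.7 in pool 2 and 0.808 in pool 3, and with 22 counts in pool 3 its ratio of 17.2 lay between 11.2 and 27.8. The O-fucosyltransferase AT2G44500 had 38.7 CPM in pool 1, 24.99 in pool 2 and 7.27 in pool 3. In both, the larger step lay between pools 2 and 3. XCP2, a cysteine protease of xylem vessels, had 8.15 CPM in pool 1, 6.74 in pool 2 and 1.84 in pool 3. COBL8, a COBRA-like wall protein, had 9.39 CPM in pool 1, 5.08 in pool 2 and 3.12 in pool 3, the lowest ratio of the set at 3.01.

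Mitochondrial, nudix and metabolic genes gave 10 members with a median ratio of 7.15. DIC2 and UCP5 carry dicarboxylates across the inner mitochondrial membrane. DIC2 had 174 CPM in pool 1, 95.7 in pool 2 and 13.7 in pool 3. UCP5 had 107 CPM in pool 1, 75.3 in pool 2 and 11.4 in pool 3. In both carriers pool 3 stood apart from pools 1 and 2. BCS1, an AAA-type ATPase of mitochondria, had 56.1 CPM in pool 1, 54.4 in pool 2 and 4.37 in pool 3, with pools 1 and 2 nearly level. NUDT21 and NUDT4, hydrolases of nucleoside diphosphate derivatives, were graded. NUDT21 had 179 CPM in pool 1, 101 in pool 2 and 25.8 in pool 3. NUDT4 had 101 CPM in pool 1, 46.3 in pool 2 and 12.7 in pool 3. NUDT17 had 23.7 CPM in pool 1, 13.3 in pool 2 and 7.71 in pool 3 and was the flattest of the 3 nudix genes. PS2, a pyrophosphatase induced by phosphate starvation, had 8.63 CPM in pool 1, 8.23 in pool 2 and 1.17 in pool 3. FMO GS-OX4, a glucosinolate oxygenase, had 19.8 CPM in pool 1, 7.40 in pool 2 and 2.97 in pool 3. The malate dehydrogenase c-NAD-MDH2 and the amino acid transporter SIAR1 had mean levels of 7.34 and 7.55 CPM.

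COR47, a cold-induced dehydrin, was the 1 member from the list of 10 raffinose and cold genes at this level, with 57.1 CPM in pool 1, 36.8 in pool 2 and 16.4 in pool 3. COR15A, a chloroplast protein and target of the CBF factors, had 20.5 CPM in pool 1, 8.81 in pool 2 and 15.1 in pool 3, where pool 2 was lowest. KIN2 had 475 CPM in pool 1, 363 in pool 2 and 405 in pool 3. Of the 10 genes, 5 stood in the order of CBF1 and CBF2, with pool 1 above pool 2 above pool 3, where 17.3% of all loci of this level did. Highest in pool 1 were 9 of the 10, COR47 among them by the rule, beside 32.8% of all loci.

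No role was assigned to the 37 remaining members, 20 of which had 1 exon, and 61 of all 133 members carried only a locus name. AT4G32020, annotated as a serine/arginine-rich protein, had the highest level per exon length of all members, with 613 CPM in pool 1, 443 in pool 2 and 178 in pool 3. AT4G29780, annotated as a nuclease, had 383 CPM in pool 1, 175 in pool 2 and 23.8 in pool 3, a ratio of 16.1 (interval 14.9 to 17.5). AT5G42050, which has a DCD domain, had 284 CPM in pool 1, 168 in pool 2 and 66.1 in pool 3. AT1G07135, a glycine-rich protein, had 251 CPM in pool 1, 113 in pool 2 and 26.0 in pool 3. AT4G29780 was the steepest of these 4 genes. AT3G02840, an ARM repeat protein, was steeper still, with 16.1 CPM in pool 1, 5.70 in pool 2 and 0.881 in pool 3. AT5G64870, of the SPFH membrane-protein type, had 35.6 CPM in pool 1, 25.1 in pool 2 and 2.68 in pool 3. AT2G39650, with a DUF506 domain, had 54.8 CPM in pool 1, 31.6 in pool 2 and 4.37 in pool 3. All 3 had a ratio above 10. AT1G18740 and AT1G74450 both have a DUF793 domain. AT1G18740 had 254 CPM in pool 1, 139 in pool 2 and 57.3 in pool 3. AT1G74450 had 60.2 CPM in pool 1, 32.9 in pool 2 and 9.69 in pool 3. The heavy-metal domain genes AT5G52750 and AT5G52760 are adjacent on chromosome 5. AT5G52750 had 38.8 CPM in pool 1, 27.6 in pool 2 and 9.73 in pool 3. AT5G52760 had 29.9 CPM in pool 1, 20.1 in pool 2 and 4.99 in pool 3. The 24 unassigned members without values of their own here had ratios of pool 1 to pool 3 between 3.03 and 8.41 and mean levels up to 126 CPM.

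Levels between genes can be compared only per length. On a TPM-like scale, in which CPM is divided by exon length and rescaled to the same total, the members ranged from 3.05 to 315 with a median of 23.57. AT4G32020 stood at 315, NHL3 at 311, PUP14 at 237, AT4G27280 at 236 and AT1G07135 at 233. The median over all loci of this level was 29.1 on the same scale.

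Lists of stress and hormone pathways were set beside the members, 24 in all, of which 15 held at least 1 member. Besides those given above, 7 of 13 ethylene response factors, 4 of 7 DREB and RAP2 factors, 4 of 6 calmodulin-like sensors, 2 of 7 tandem CCCH proteins, 2 of 7 touch and wall genes, 3 of 17 kinase cascade genes and 3 of 13 PUB and ATL ligases were members. So were 3 of 11 stress MYB and NAC factors, 1 of 14 surface receptors, 1 of 7 gibberellin genes and 1 of 8 heat shock genes. The 9 lists with no member were the 4 jasmonate lists, early auxin, hypoxia, starvation, clock and the constitutive reference. With 0.866% of all loci in the set, lists of this size with 0 members are near the background. Median log2 ratios of pool 1 to pool 3 were 2.197 for the DREB and RAP2 list, 2.17 for calmodulin-like sensors and 1.80 for ethylene response factors, beside 0.03 over all loci. They were -0.28 for the clock, -0.38 for hypoxia, 0.20 for starvation, -0.07 for early auxin and -0.09 for the reference list. These lists were drawn up with results of these data known.

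Jasmonate synthesis and signalling genes are wound-response genes too. The 4 jasmonate lists do not hold every gene of the pathway, and 0 of their genes at 5 CPM or more were members, which at a share of 0.866% over all loci is near the background. Of 16 repressor and signalling genes, 0 were at least 3 times as high in pool 1 as in pool 3. Over all loci this share was 1.16%, so 0 of 16 is near the background. The median log2 ratio of the 16 genes was -0.20. The 13 synthesis genes had a median of 0.01 but were split: the lipoxygenase LOX3 had 96.3 CPM in pool 1, 48.4 in pool 2 and 34.3 in pool 3. LOX4 had 38.6 CPM in pool 1, 22.3 in pool 2 and 14.1 in pool 3. LOX2 had 145 CPM in pool 1, 271 in pool 2 and 438 in pool 3, the reverse order. For the 2 turnover genes the median was -0.99. All 7 jasmonate-responsive defence and storage genes were lower in pool 1 than in pool 3, with a median log2 ratio of -1.15. VSP2, a vegetative storage protein of that list, had 380.0 CPM in pool 1, 794 in pool 2 and 965 in pool 3. ORA47, the activator of jasmonate synthesis, and VSP2 stood in opposite orders over the pools.

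**Figure D5:**
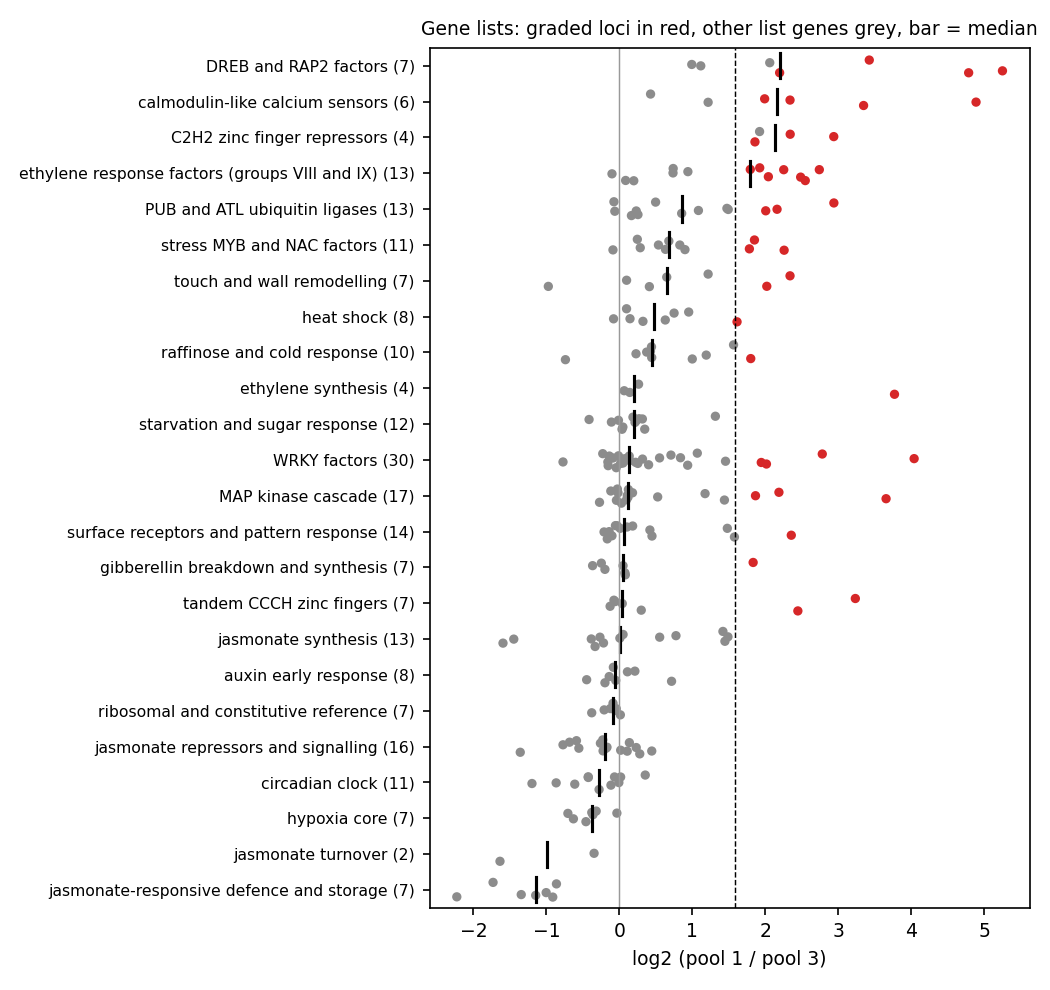
Log2 ratio of pool 1 to pool 3 for the genes of 24 lists with a mean of at least 5 CPM, 1 row for each list with the number of genes plotted, ordered by median (black bar). Graded loci are red, and the dashed line marks a ratio of 3. The medians run from 2.197 for DREB and RAP2 factors to -1.15 for jasmonate-responsive defence and storage genes.

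Loci near the thresholds show how the set was bounded. Just inside the limit of 3 for pool 1 over pool 3 were COBL8 (3.01), SRC2 (3.02) and AT3G53960 (3.03), and just outside were HMA2 (3.00 after rounding), SOBIR1 (2.99) and LTI78 (2.96). For pool 2 over pool 3 the nearest inside were AT1G76600 (1.57), HSFB2A (1.57) and AT2G42510 (1.60), and outside AT2G32235 (1.45), AT1G23710 (1.40) and ZF2 (1.40). By mean level, AT5G66070 (5.03 CPM), MYB51 (5.07 CPM) and AT1G19020 (5.24 CPM) were just in, and AT4G27657 (4.99 CPM), AT5G10695 (4.81 CPM) and DDF1 (4.63 CPM) just out. On pool 1 over pool 2 the members closest to the cap of 10 were AT3G22910 (4.13), CBF1 (3.71) and AT1G56660 (3.53), and the loci next beyond it were AT5G15140 (11.6), MEE48 (46.7) and AT5G26730 (55.3). The cap alone removed 18 loci, among them the tapetum regulator AMS and ACOS5, an enzyme of pollen wall synthesis, with 46.2 CPM in pool 1, 0.415 in pool 2 and 0.0734 in pool 3.

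A few members lay beside each other on the chromosome. Within 20 kb of each other were 8 pairs, of which AT2G30020 with MAPKKK14, AT5G41740 with AT5G41750 and AT5G52750 with AT5G52760 had no locus between them. Reads can be shared by 2 pairs of similar members: AT1G66500 and AT5G43620, both annotated as mRNA cleavage factors, matched at 92.8% identity over 96.1% of the exons of AT1G66500, and the adjacent receptors AT5G41740 and AT5G41750 matched at 90.04%. Their split is uncertain. AT1G66500 had 49.1 CPM in pool 1, 32.3 in pool 2 and 4.81 in pool 3, and AT5G43620 had 23.4 CPM in pool 1, 15.6 in pool 2 and 3.27 in pool 3. Another locus overlapped 22 members, on the opposite strand in 18 and the same strand in 4. The libraries were strand-specific but how the counting used strand is not given in the sources used here. AT2G38790 and AT5G51190 lie wholly within the exons of AT2G38780 and AT5G51180 on the other strand, and HSFC1 overlaps AT3G24518 by 1808 bases. AT5G51180 itself had 46.4 CPM in pool 1, 38.4 in pool 2 and 34.7 in pool 3, and AT2G38780 had 18.4 CPM in pool 1, 20.6 in pool 2 and 20.1 in pool 3, so the partners were flatter than the members.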

How the data were processed

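The authors deposited raw read counts per gene, 1 whole number for each locus and pool; these deposited counts were not normalised. The submitters' processing notes name HTSeq 0.6.1, TopHat2 2.1.0, Bowtie2 2.2.5 and FastQC with the build TAIR10. The strand setting and the handling of reads with several matches are not given in these sources. Per the labels' protocols, libraries were strand-specific and read as 100 bp pairs. Each of the 3 pools held 10 inflorescences.

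Chloroplast (133) and mitochondrial (146) loci were left out, and CPM was taken over the nuclear counts, so that 5 CPM is about 145 counts in pools 1 and 2 and 136 in pool 3. A count of 0 allows up to 0.110 CPM (3 counts). Some loci are not reported here. Loci were matched by identifier to the RefSeq annotation of TAIR10.1 (31912 matched, all 133 members among them), which gave names, exons, starts and sequence. Levels per length, exact binomial intervals and motif shares were computed in Python 3.11.15 with pandas 2.3.3 and scipy 1.17.1, and near copies were found with BLAST+ 2.17.0 (at least 90% identity over 50% of the exons). The pools form 1 group, so there was no comparison between groups and no p-value. TMM factors from edgeR 4.0.16 and size factors from DESeq2 1.42.0 (R 4.3.3) served only as other scalings. The rule and the ratio intervals were tested on simulated data.

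The members, roles, gene lists and motifs were chosen with earlier results of these data known. Genes are named by a rule: the 15 members highest by mean CPM, the 15 highest by pool 1 over pool 3, up to 8 in each role group, up to 6 genes of each list, the 3 loci on each side of each threshold, and adjacent members. Genes named outside it, such as DREB1A, AT3G02840 and the overlapping partners, were chosen after their values were seen.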

Additional observations from a re-analysis of the deposited data

How the results depend on the processing

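The count of 133 members was 127 with TMM factors, 126 with DESeq2 size factors and 133 with organelle reads in the totals. It was 196 with a minimum mean of 1 CPM and 98 with 10 CPM, 172 with no minimum and a pseudocount of 0.5 CPM, and 118 with a pseudocount of 1 CPM. It was 181 and 96 when pool 1 had to exceed pool 3 by 2 or 4 times, 109 when pool 2 had to exceed pool 3 by 2 times, and 151 with no cap. Leaving out a pool drops the criteria that need it, and the count then ranged from 179 without pool 2 to 673 without pool 1 and 7012 without pool 3. Median log2 ratios stayed between 2.30 and 2.34 for pool 1 over pool 3 and between 1.43 and 1.51 for pool 2 over pool 3 under the other scalings. The 20 motif shares under another window stayed inside the interval of the share reported, but that of CGCGTT in members fell to 8.27% with the bases after the start left out, just above the lower bound of 8.22%. A search for short protein motifs was planned and not run. No paired analysis was possible because the pools form 1 group. Members near 5 CPM rest on few reads in pool 3, 9 counts at the lowest, which leaves their ratios wide.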

Other observations

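Loci that missed the rule by 1 criterion were counted, and those named were chosen after their values were seen. With a mean between 1 and 5 CPM there were 63 loci that met the rest of the rule, 25 of them with a single exon. They included further early-response genes and also genes of other kinds, some of them named for xylem or the cell wall. CBF4 had 7.81 CPM in pool 1, 2.80 in pool 2 and 0.551 in pool 3, and DDF1, another DREB1-type activator, had 10.5 CPM in pool 1, 2.63 in pool 2 and 0.734 in pool 3. MYB15, a regulator of cold and defence genes, had 5.43 CPM in pool 1, 4.25 in pool 2 and 0.367 in pool 3. PUB19, the closest relative of PUB18, had 9.32 CPM in pool 1, 2.80 in pool 2 and 0.771 in pool 3. JAZ8, a jasmonate repressor, had 5.98 CPM in pool 1, 2.32 in pool 2 and 0.955 in pool 3, the reverse of the order of VSP2. NCED3, the enzyme that limits abscisic acid synthesis, had 5.09 CPM in pool 1, 2.45 in pool 2 and 0.661 in pool 3. TED6, annotated as related to tracheary element differentiation, had 2.99 CPM in pool 1, 1.52 in pool 2 and 0.220 in pool 3. The cellulose synthase CESA4 had 2.89 CPM in pool 1, 2.35 in pool 2 and 0.844 in pool 3. Over 5 vascular markers at 5 CPM or more, the median log2 ratio of pool 1 to pool 3 was 0.41, beside 0.03 over all loci. Pool 1 was highest in 1 of them, beside 32.8% of all loci.

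With a pool 1 over pool 3 of 2 to 3 there were 48 loci that met the rest of the rule, 17 of them with a single exon. AT3G56880, a VQ protein, had 557 CPM in pool 1, 326 in pool 2 and 204 in pool 3. MKK9, a kinase upstream of MPK3 and MPK6, had 105 CPM in pool 1, 63.7 in pool 2 and 38.7 in pool 3. LYK5, a chitin receptor, had 53.3 CPM in pool 1, 31.6 in pool 2 and 19.1 in pool 3. SARD1, the partner of CBP60G in salicylic acid synthesis, had 59.3 CPM in pool 1, 38.5 in pool 2 and 23.4 in pool 3. AOC3, a jasmonate synthesis enzyme, had 45.4 CPM in pool 1, 44.9 in pool 2 and 17.0 in pool 3.

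A further 11 loci failed only because pool 2 was less than 1.5 times pool 3, and 2 of these had a single exon. Among them DIP2 had 13.5 CPM in pool 1, 4.29 in pool 2 and 3.12 in pool 3 and the hypothetical protein AT1G23710 had 74.6 CPM in pool 1, 27.2 in pool 2 and 19.4 in pool 3. The 18 loci removed by the cap on pool 1 over pool 2 also had 2 with a single exon, against 70 of the 133 members.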
